A study of Mus musculus with 45 samples.

Results

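The zinc finger genes whose mouse symbols run from Zfp600 to Zfp999 were examined as one family in primary cells of the developing mouse cortex. Of 53491 genes in the tables, 173 carried such a symbol, and 120 of these were kept because more than 500 T positions were covered by reads in every library. The other 53 fell short, 5 of them with no covered T at all. The comparison set was formed by the 11713 other genes that passed the same coverage minimum. Cells came from wild-type embryos of 3 stages (E11.5, E14.5, E16.5), with 3 replicates (A, B and C) a stage. A replicate pooled the cortices of 7 embryos at the youngest stage and of 2 at the others. Where 3 stage values follow each other, they stand in the order of age. All cultures were labelled with 100 uM 4-thiouridine (4sU) for 20 h and chased with 5 mM uridine. SLAM-seq libraries, in which 4sU is read as a T-to-C conversion, were made at 0, 2, 4, 8 and 12 h of chase, which gives 45 libraries of 15.9 to 43.9 M reads. These are cultures of dissociated cortex that hold progenitors and neurons together, and the 5 libraries of a letter within a stage came from 1 pool.

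Zinc finger proteins of the C2H2 type bind DNA through arrays of small folds, each held by a pair of cysteines and a pair of histidines around a zinc ion. In the largest vertebrate subfamily the array is joined to a Krüppel-associated box (KRAB), which recruits the corepressor TRIM28 and, through it, SETDB1 and HP1 proteins that set down and bind methylated histone H3. Many KRAB zinc finger proteins silence retroelements, and their genes lie in clusters that grew by duplication.

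By a sequence pattern, the name KRAB-type fitted only a part of the family. Of the 120 members, 119 had a coding isoform in the GENCODE annotation (Zfp939 is a transcribed pseudogene), and 79 of these 119 held a KRAB-A pattern, set as at least 11 of 14 conserved positions. The pattern was absent from 40 members, among them Zfp608, Zfp609, Zfp638, Zfp687, Zfp703, Zfp704, Zfp706 and Zfp711. Over all coding genes it was found in 322 of 21303, of which 22 had no C2H2 finger pattern. How many KRAB domains the pattern misses was not measured, so its absence does not prove that the domain is lacking. Members with the pattern held a median of 12 C2H2 fingers, and those without it a median of 7. Members are therefore described both as one family and in these 2 subgroups.

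The KRAB-A pattern defines the subgroups. The linker between neighbouring fingers occurred in both, with a median of 7 copies in members with the pattern and 0 in members without it. Shown for 4 members that differ in half-life or expression are 30 bases at the start of the KRAB-A pattern. They open with the codons just before its first conserved position. Capitals mark an A or T at the third position of a codon, and the coordinates refer to GRCm38 (mm10).
Zfp719 (chr7:43586360-43586389, plus strand): gtgtccttTgaTgaTgtgacTgtggacttc
Zfp626 (chr7:27808207-27808236, plus strand): gtgacAttTagggaTgtggcTgtTgacttc
Zfp811 (chr17:32800903-32800932, minus strand): gtgaccttcgaggaTgtggcTgtgcacttc
Zfp605 (chr5:110123760-110123789, plus strand): atAtcAttTgaggaTgtggcTgtAgacttc

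The linker, which reads histidine, threonine or serine, glycine, glutamate, lysine or arginine, proline and an aromatic residue, was found 631 times in 96 members. It was absent from 22 of the 40 members without a KRAB pattern and from 1 of the 79 with one. These 631 copies were written in 338 different ways, and the most frequent 21 bases (34 copies in 15 members) were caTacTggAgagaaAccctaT. Of the linker codons, 59.7% ended in A or T in members with a KRAB pattern and 27.8% in members without one. The first linker of a KRAB member with a short half-life (Zfp719), of a KRAB member with a long one (Zfp811) and of members without KRAB at both ends (Zfp623 and Zfp652) is shown to compare them.
Zfp719 (chr7:43590076-43590096, plus strand): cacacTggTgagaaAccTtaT
Zfp811 (chr17:32798318-32798338, minus strand): cacacTggAgaAaagccctaT
Zfp623 (chr15:75947533-75947553, plus strand): cacacgggggagaagccTtac
Zfp652 (chr11:95753448-95753468, plus strand): caTtcTggAgagaaAcccttc

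The first question was how fast the label left these mRNAs. Family mRNAs lost it faster than other mRNAs at all 3 stages. The conversion rate, converted over covered Ts of a gene, started at a similar level in both sets. At 0 h its median over members was 1.22% ± 0.223, 1.20% ± 0.0922 and 2.01% ± 0.0761 by stage (SD, n = 3), against 1.19% ± 0.227, 1.12% ± 0.0839 and 1.84% ± 0.0545 over the other covered genes. After 4 h of chase, 31.4% ± 3.64, 32.0% ± 1.89 and 23.8% ± 0.865 of the starting rate was left in the members. The other genes still held 46.6% ± 5.20, 47.6% ± 2.16 and 38.8% ± 0.826. In each of the 9 replicates the members were below the other genes at 4 h. By 12 h the 2 sets had come close, at 19.6% ± 4.00 and 20.1% ± 3.76 in the youngest cells and at 10.2% ± 0.435 and 11.3% ± 0.0865 in the oldest. The late rate can include conversions unrelated to the label, and none of the 45 libraries was unlabelled. A background rate was therefore set at the 1st percentile of the 12 h rates among genes with over 20000 covered Ts. It was 0.122% to 0.153% in the 9 replicates and may still hold label.

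**Figure D1:**
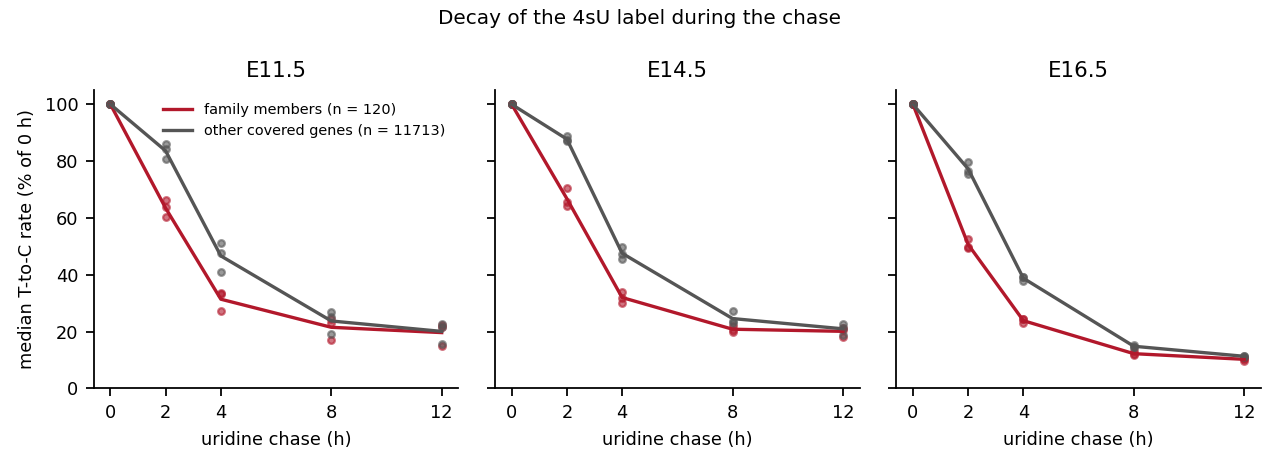
Median T-to-C conversion rate during the chase, as a percentage of the rate at 0 h, plotted against hours of chase for each stage. Lines join means and points are the 3 replicates. The 120 family members (red) lie below the 11713 other covered genes (grey) at 2 and 4 h, and both sets level off by 12 h, lowest at E16.5.

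Half-lives were then compared, from the curve exp(-kx) fitted to the rates of each gene and replicate. A half-life passed with R2 over 0.6 and a value under 24 h, and 91 members passed in all 9 replicates (75.8%), as did 9414 of the other genes (80.4%). The median over members was 3.18, 3.53 and 2.61 h in replicates A, B and C of E11.5, then 2.98, 3.10 and 3.31 h, then 2.07, 2.18 and 2.17 h. In the same order, the median over other genes was 4.37, 4.75 and 3.86 h, then 4.41, 4.44 and 4.77 h, then 3.32, 3.38 and 3.46 h. Members had the shorter median in 9 of 9 replicates, and no test was made over members, which are not replicates. The difference was -1.22 ± 0.0291, -1.41 ± 0.0583 and -1.25 ± 0.0459 h (SD, n = 3), which put the family at 71.6% ± 3.48, 68.9% ± 1.12 and 63.2% ± 1.04 of the median of other genes. Both sets were shorter at E16.5 than at the earlier stages. The size of that step depended on the background rate. After its subtraction the medians of members were 2.21, 2.26 and 1.81 h, with E16.5 lowest but nearer the earlier stages. The percentages of other genes are not given after this subtraction. In a fit to the first 4 h of chase alone, in which 94 members and 5203 other genes passed, the difference was smaller, at -0.71, -0.85 and -0.66 h.

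Short half-lives were frequent in the family. Of the 91 members, 35, 40 and 37 by stage were among the shortest 10% of all measured genes, that is 38.5%, 44.0% and 40.7% of them. That shortest set also held 916, 911 and 914 other genes. Below the median of all measured genes lay 80, 81 and 83 of the 91. None of the 91 was in the longest 10% in any stage. Members still differed among themselves. Their central 80% ran from 2.30 to 4.45 h, from 2.29 to 4.78 h and from 1.61 to 3.27 h by stage. A single member varied between replicates by a median SD of 0.773, 0.509 and 0.181 h, so that the order of members is best resolved in the oldest cells.

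**Figure D2:**
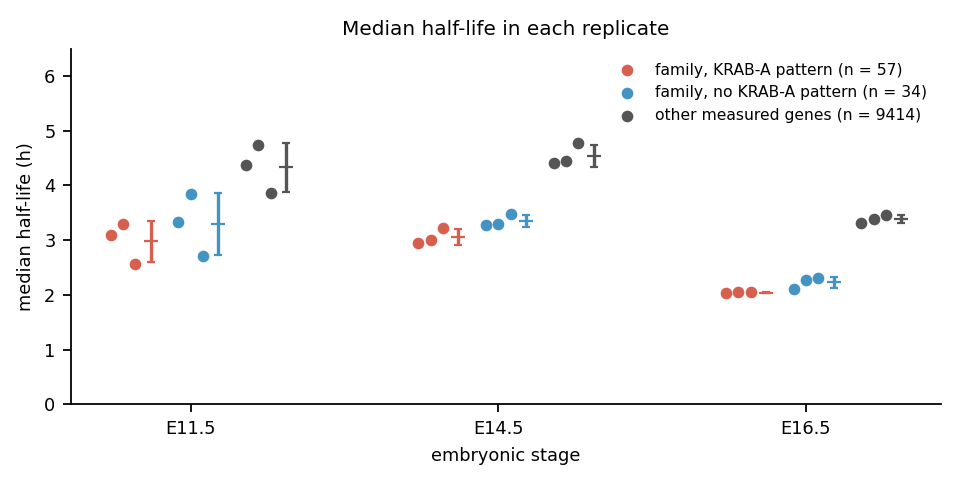
Median half-life in hours in each replicate (points) with the mean and SD of the 3 replicates (bars), for members with a KRAB-A pattern, members without it and the other genes measured in all 9 replicates. Both subgroups lie below the other genes at every stage, and all 3 sets are lowest at E16.5.

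Members with and without a KRAB pattern differed little in half-life. Members with the pattern (57 measured) had median half-lives of 2.98 ± 0.377, 3.06 ± 0.146 and 2.04 ± 0.0102 h (SD, n = 3). Members without it (34 measured) had 3.29 ± 0.562, 3.34 ± 0.109 and 2.23 ± 0.105 h. KRAB members were shorter in 9 of 9 replicates, by 0.31 ± 0.205, 0.29 ± 0.0368 and 0.19 ± 0.0950 h, so that most of the distance from other genes was shared by both subgroups. Short half-lives were also not confined to these symbols. The 76 measured genes outside the family that hold a KRAB pattern had medians of 2.98, 3.17 and 2.12 h, and 190 other genes with at least 3 fingers and no KRAB pattern had 3.14, 3.23 and 2.18 h. The 135 measured Zfp genes of lower or higher number stood at 3.32, 3.40 and 2.26 h. Zbtb genes, which pair fingers with a BTB domain, were at 2.81, 2.70 and 1.93 h (25 measured), and Zkscan and Zscan genes at 3.17, 3.19 and 2.14 h (14 measured).

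At the short end stood Zfp747, Zfp719, Zfp623, Zfp764 and Zfp689. Zfp719 (chr7:43579610-43593235, ENSMUSG00000030469, a KRAB gene with 13 fingers) had half-lives of 1.70, 1.78 and 1.68 h in the E11.5 replicates, then 2.07, 1.92 and 2.50 h, then 1.37, 1.43 and 1.48 h. Zfp623 (chr15:75940952-75949400, ENSMUSG00000050846, 12 fingers and no KRAB pattern) had 2.53, 2.31 and 2.18 h, then 1.83, 2.11 and 1.90 h, then 1.45, 1.47 and 1.47 h. The E16.5 replicates of both genes lay below all their replicates of the earlier stages, and all these values were below the median of other genes in the same replicate. Zfp747 had the shortest mean over stages (1.51 h) and varied most at E11.5, where its replicates were 2.98, 1.33 and 1.14 h. Zfp747, Zfp764 and Zfp689 lie in the same gene cluster on chromosome 7, whose 8 measured members ran from 1.51 to 4.16 h. They share 34.4%, 27.1% and 12.7% of their 50-base words with other genes. Reads of these 3 genes may thus have been split between copies.

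At the long end stood Zfp704, Zfp652, Zfp738, Zfp706 and Zfp811. Zfp704, a member with 1 finger pattern and the longest annotated 3′ untranslated region of the family (11767 nt), had 4.89, 6.21 and 4.91 h, then 5.91, 6.39 and 6.93 h, then 4.84, 4.86 and 4.94 h. All its values were above the median of other genes in the same replicate. Zfp652 had 4.59, 4.83 and 3.94 h, then 6.59, 7.67 and 5.86 h, then 3.70, 4.37 and 4.04 h. Its E14.5 replicates did not overlap those of the other stages in hours. In the test across stages described below it was not called (adjusted p = 0.12, limma F-test). Zfp706, a short protein known from stem cell self-renewal, had 4.93 ± 0.490 h (SD, n = 3), 5.05 ± 0.298 h and 4.31 ± 0.0888 h. Zfp738, with 20 fingers, had the longest mean over the 3 stages among KRAB members, at 4.97 ± 0.386, 5.52 ± 0.732 and 4.21 ± 0.175 h, and Zfp811 followed at 5.49 ± 1.21, 3.81 ± 0.933 and 3.50 ± 0.337 h. Zfp704, Zfp652 and Zfp738 share 16.49%, 18.6% and 17.8% of their 50-base words with other genes. The ranges of Zfp704, Zfp706 and Zfp738 overlapped at E11.5, and their order there was within the spread of replicates.

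**Figure D3:**
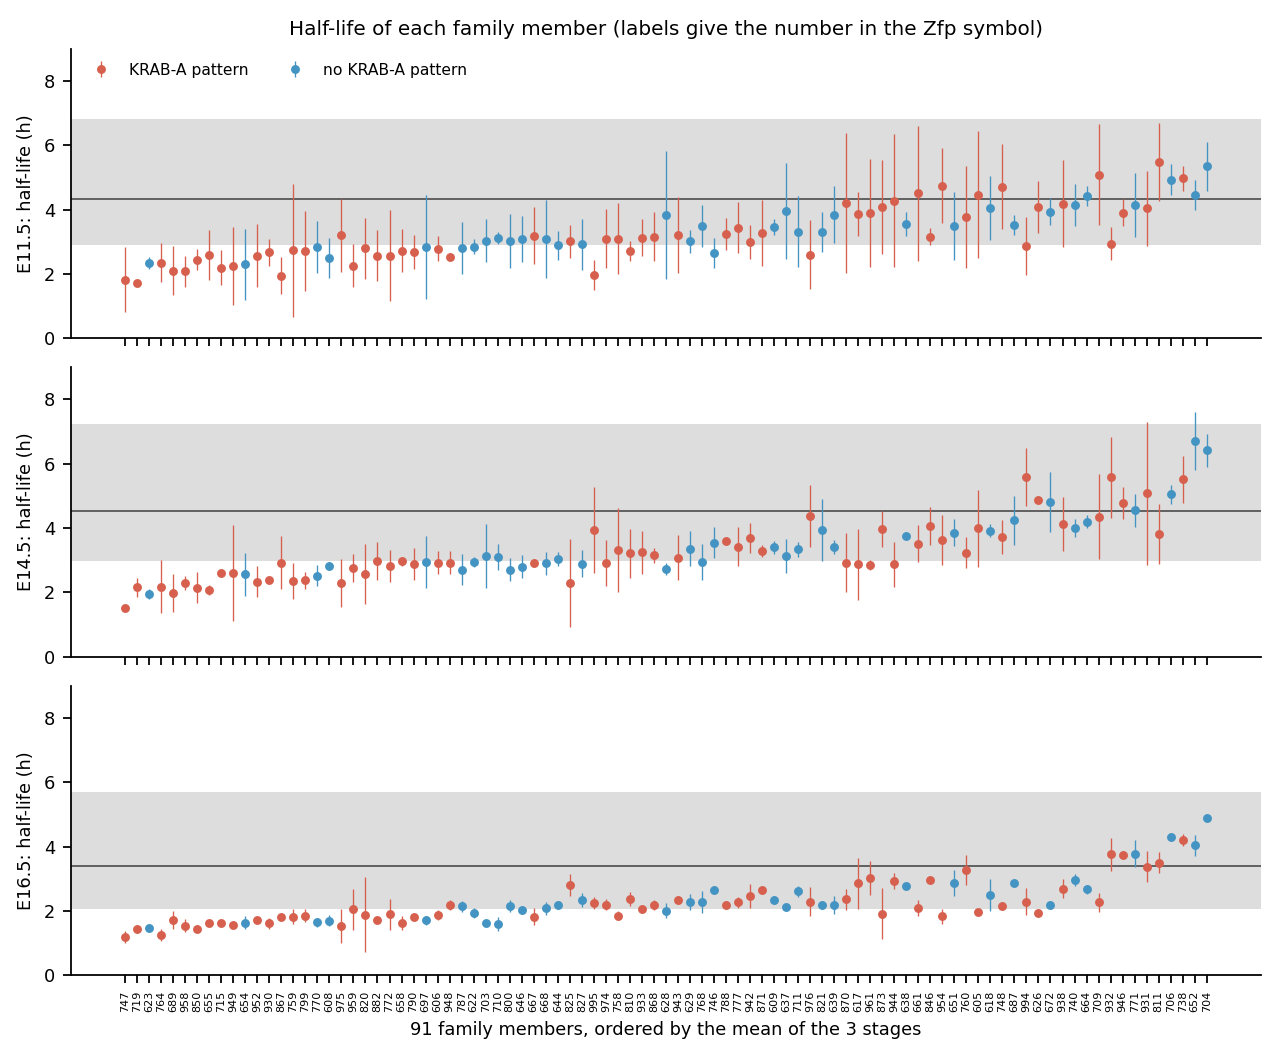
Half-life in hours of the 91 members measured in all 9 replicates (mean and SD of 3 replicates), ordered by the mean of the 3 stages, with the number of the Zfp symbol under each. The grey band holds the central 80% of the other genes and the line their median. Most members lie under the line at every stage, and bars are shortest at E16.5.

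Members with known roles were spread between these ends. Zfp609, a partner of the cohesin loader NIPBL and the Integrator complex in cortical progenitors, had half-lives of 3.40, 3.74 and 3.25 h, then 3.26, 3.29 and 3.64 h, then 2.20, 2.41 and 2.39 h. Its paralog Zfp608 had 2.57, 3.09 and 1.83 h, then 2.81, 2.77 and 2.85 h, then 1.87, 1.67 and 1.53 h, and lay below Zfp609 in all 9 replicates. Zfp638, which silences unintegrated retroviral DNA, was at 3.56 ± 0.370, 3.75 ± 0.0970 and 2.76 ± 0.0360 h. Zfp644, a partner of the G9a and GLP histone methyltransferases, was at 2.89 ± 0.449, 3.03 ± 0.210 and 2.18 ± 0.0791 h. The transcriptional repressor Zfp703 fell in the same range, with 3.03 ± 0.669, 3.14 ± 0.991 and 1.62 ± 0.0711 h. Zfp687, Zfp711 (an X-linked gene of intellectual disability), Zfp746 (the Parkin substrate PARIS) and Zfp827 ranged from 2.34 to 2.88 h at E16.5. The retroelement repressor Zfp932 had 2.93 ± 0.513, 5.57 ± 1.26 and 3.76 ± 0.501 h and shares 37.0% of its words with other genes. Zfp809, which binds the primer binding site of murine retroviruses, passed the filters in all replicates at E16.5 only, with 4.47, 2.40 and 3.67 h.

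The proteins that KRAB zinc finger proteins work through were encoded by longer-lived mRNAs. Of a list of such partners, which also holds the imprinting regulator Zfp57, 19 genes were found and measured, with medians of 4.68 ± 0.422, 4.78 ± 0.299 and 3.77 ± 0.193 h, and none of the 19 was in the shortest 10%. The corepressor Trim28 had half-lives of 4.56 ± 0.334, 5.00 ± 0.251 and 4.20 ± 0.145 h, and the histone methyltransferase Setdb1 had 4.58 ± 0.654, 6.12 ± 0.211 and 3.87 ± 0.0683 h. The shortest of the list were Atf7ip, a stabiliser of Setdb1, at 2.93 ± 0.374, 3.14 ± 0.340 and 2.15 ± 0.126 h, and the chromatin remodeller Smarcad1 at 3.20 ± 0.319, 3.39 ± 0.193 and 2.21 ± 0.112 h.

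Whether the place of a member among all mRNAs moved with stage was tested on half-lives z-scored within each replicate, with the moderated F-test of limma over 9505 genes. Of the 91 members, 1 was called, where 3.15% of all genes tested were called. This was Zfp626, a KRAB gene with 17 fingers (chr7:27807196-27822916, ENSMUSG00000030604). Its half-life was 4.68, 4.38 and 3.16 h, then 4.90, 4.78 and 4.97 h, then 1.92, 1.90 and 2.02 h, and the E16.5 replicates lay apart from all others. In SD units of the replicate it fell by 1.02 ± 0.144 (SE) from E14.5 to E16.5, with an adjusted p of 0.025 over the 3 stages (limma) and of 0.032 for this pair, in which 0.2% of genes were called as shorter. The call was lost without replicate B of E11.5, replicate A of E14.5 or any replicate of E16.5. It was also lost with a block for the replicate letter, where 0 of all 9505 genes were called. For E16.5 against E11.5, 2 members were called as shorter, beside 1.71% of genes. These were Zfp626 (adjusted p = 0.036, limma) and Zfp954 (adjusted p = 0.042, limma). Zfp954 had 4.28, 6.07 and 3.88 h at E11.5 and 2.06, 1.60 and 1.83 h at E16.5. Over the 3 stages it was not called (adjusted p = 0.081, limma F-test). In this pair 0 members were called as shorter with the replicate block and without replicate A or B of E11.5. Over all genes 49, 102 and 69 were called as shorter there. In hours without scaling, which keeps the general shortening at E16.5, 12 members were called beside 24.2% of all genes.

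The order of members was similar in part between stages. The Spearman correlation of their mean half-lives, across 91 genes that are not independent replicates, was 0.67 for the first step in age and 0.70 for the next, where the other genes gave 0.87 at both. From E14.5 to E16.5 the mean half-life was lower in 87 of 91 members, beside 94.1% of the other genes.

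Sequence features of the members were then set against those of all other protein-coding genes, and other zinc finger genes were not compared separately. Their transcripts held few exon junctions: the longest coding isoform had a median of 1.09 junctions per kb in members and 3.08 in 10319 other protein-coding genes. Median 3′ untranslated regions were similar in length, at 1191 and 1066 nt, and the AU-rich pentamer ATTTA stood at a median of 1.56 and 1.32 per kb there. In the coding sequence the subgroups parted. The share of codons ending in G or C had a median of 39.2% in members with a KRAB pattern, 60.4% in members without it and 60.3% in other genes. Cysteine made up 6.27% of residues in KRAB members, 3.74% in the other members and 1.86% in other genes, and histidine 7.20%, 4.38% and 2.46%. These residues build the fingers for which the genes are named, so their excess, and that of their codons, goes with the choice of members.

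Codon shares were then set against half-life. Over 8730 other genes, the share of each of 61 codons was correlated with the mean half-life of the gene (Pearson r, a codon stabilization coefficient). The 26 codons with a coefficient above 0 were counted as optimal. These other genes still held the zinc finger genes outside the family, which had short half-lives too. The coefficients are therefore not free of genes like the members, and were not computed without them. The codon TGT, for cysteine, made up 5.29% of codons in KRAB members and 0.840% in other genes and had a coefficient of -0.12. For CAT (histidine) the values were 4.30%, 0.955% and -0.14, and for AAA (lysine) 6.14%, 2.10% and -0.08. Optimal codons made up a median of 35.5% of the coding sequence of KRAB members, 47.7% of that of the other members and 52.3% of that of other genes. In 62 of 79 KRAB members and in 7 of 40 other members this share was under 41.4%, the limit of the lowest 10% of other genes. The 936 measured genes of that lowest 10% had median half-lives of 3.64, 3.79 and 2.81 h at the 3 stages, between the members and all other coding genes (4.30, 4.50 and 3.33 h). How many of these 936 were zinc finger genes was not counted.

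**Figure D4:**
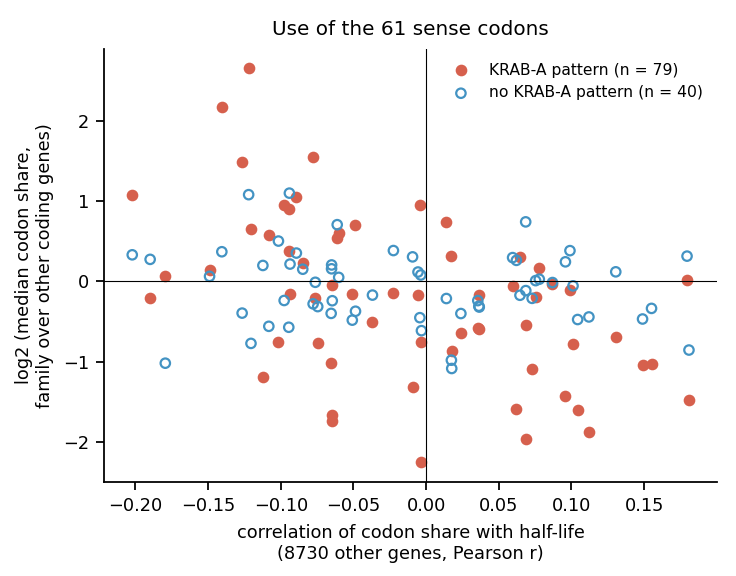
Each of the 61 sense codons is 1 point for members with a KRAB-A pattern (filled) and 1 for members without it (open). The x axis gives the correlation of the codon share with half-life over 8730 other genes, and the y axis the log2 ratio of the median codon share in the family to that in other protein-coding genes. The filled points highest on the y axis lie left of 0 on the x axis, and the open points stay closer to a ratio of 0.

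Most of these features ordered the members weakly. Across the 91 measured members the Spearman correlation with half-life was 0.04 for the optimal codon share, 0.14 for junctions per kb and 0.01 for the length of the 3′ untranslated region. Over other protein-coding genes it was 0.30, 0.43 and -0.29. Amino acid shares of the protein gave higher values among the 57 KRAB members, 0.36 for histidine and 0.37 for lysine, where all 91 members gave 0.13 and 0.18 and the other genes -0.17 and 0.03. These are descriptions across genes, which share libraries and, among paralogs, sequence.

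Members of a gene cluster differed in half-life. With a largest gap of 1 Mb, 55 of the 120 members lay in 9 clusters of at least 4. The largest, chr17:21567008-22867134, held 12 members, all with a KRAB pattern, whose 10 measured half-lives (mean of the stages) had a median of 2.96 h and ran from 2.41 to 4.14 h. The cluster at chr7:41633203-43593235 had the lowest median, 2.39 h, with 6 measured members between 1.77 and 3.09 h. A cluster at chr13:67038596-67687071 held 3 measured members between 2.30 and 4.90 h, the last of which is Zfp738. Chromosome 7 carried 31 members in all and chromosome 17 carried 19.

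The next question was how the family was expressed before the chase. Per kb of exon, the median level of members at 0 h was 3.45 ± 0.293, 4.07 ± 0.372 and 4.30 ± 0.0475 cpm (SD, n = 3), and that of other covered genes was 8.69 ± 0.105, 8.63 ± 0.0937 and 8.48 ± 0.0660. KRAB members stood lower (2.74, 3.42 and 3.56 cpm per kb) than the other members (7.38, 7.44 and 8.21). Summed over 120 genes, the family took 3774, 3479 and 3728 cpm in the E11.5 replicates, then 4043, 3951 and 4139, then 4382, 4453 and 4329, and the stages did not overlap. The highest means in cpm belonged to Zfp664, Zfp704, Zfp638, Zfp871 and Zfp740. Per kb the order was another, with Zfp869 (34.01), Zfp740 (29.7), Zfp706 (28.1) and Zfp664 (27.3) above Zfp871 (15.5), Zfp704 (12.7) and Zfp638 (11.2).

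Between E11.5 and E14.5 the family drifted upwards by less than 2-fold in most members. By the quasi-likelihood test of edgeR over 18408 genes, 6 members were called higher (8.14% of all genes) and 2 lower (8%). A call needed a log2 fold change beyond 1 and an adjusted p under 0.05. The median log2 fold change of the 120 members was 0.37, beside -0.01 over all genes, and 91 of 120 were above 0, beside 49.4% of all genes. Medians of related lists in this step were 0.34 over 186 other Zfp genes, 0.22 over 34 Zbtb genes and 0.13 over 21 Zkscan and Zscan genes. By the adjusted p alone, 74 members were higher and 14 lower, where 25.1% and 23.5% of all genes were. Of the 74 higher, 57 were KRAB members, which had a median of 0.40 with 4 lower of 79, while the 40 other members had a median of -0.00 with 16 higher and 10 lower. In the same libraries the summed level of 6 radial glia markers ran from 9578 to 10113 cpm at E11.5 and from 3448 to 4016 at E14.5, and that of 6 neuron markers from 1762 to 2162 and from 3711 to 4247. The summed levels of 4 erythroid markers (1599 to 3552 against 40.7 to 59.0 cpm) and of 3 mesenchyme markers (369 to 570 against 4.43 to 4.85 cpm) were higher in the E11.5 libraries. The part of these shifts in the result was not tested, and in such bulk samples fewer cells of a type and less RNA per cell cannot be told apart.

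The 4 largest rises were in KRAB genes. Zfp983 (chr17:21650624-21664966) stood at 3.99, 4.04 and 3.27 cpm, then 13.3, 11.2 and 14.4, then 15.3, 17.7 and 18.1. It rose by 1.88 ± 0.120 on the log2 scale (SE) to E14.5 with an adjusted p of 5.4e-08 (edgeR). An exon of another gene model lies over it on the same strand. Zfp605 stood at 10.4, 8.56 and 16.8 cpm, then 40.8, 28.6 and 28.2, then 29.2, 29.98 and 27.3, a rise of 1.52 ± 0.219 (adjusted p = 8.0e-05, edgeR) with replicate C highest at E11.5 and replicate A highest at E14.5. Zfp712 rose by 1.25 ± 0.120 and Zfp846 by 1.16 ± 0.0988, from 26.5, 21.1 and 26.9 cpm to 52.8, 52.8 and 54.4 in the latter. Rises and falls were named only where the E11.5 and E14.5 replicates did not overlap, as in 80 of 120 members and 55.6% of all genes. Zfp704, which had the longest mean half-life over the 3 stages, also rose, from 93.4, 82.8 and 96.9 cpm to 188, 182 and 203.

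The falls were those of Zfp618 and Zfp941. Zfp618, a partner of the 5-hydroxymethylcytosine reader UHRF2, stood at 79.7, 65.8 and 80.3 cpm, then 25.1, 23.3 and 22.3, then 23.2, 24.5 and 22.9. It fell by 1.65 ± 0.0923 on the log2 scale (SE) with an adjusted p of 1.6e-08 (edgeR), and E14.5 and E16.5 overlapped. Zfp941 stood at 8.41, 8.08 and 9.61 cpm, then 4.42, 3.86 and 4.03, then 6.70, 6.52 and 6.28. It fell by 1.09 ± 0.116 (adjusted p = 6.0e-06, edgeR) and rose again by 0.73 ± 0.116 (adjusted p = 0.00019). Another gene model overlaps Zfp941 on the same strand, so its reads may be shared.

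**Figure D5:**
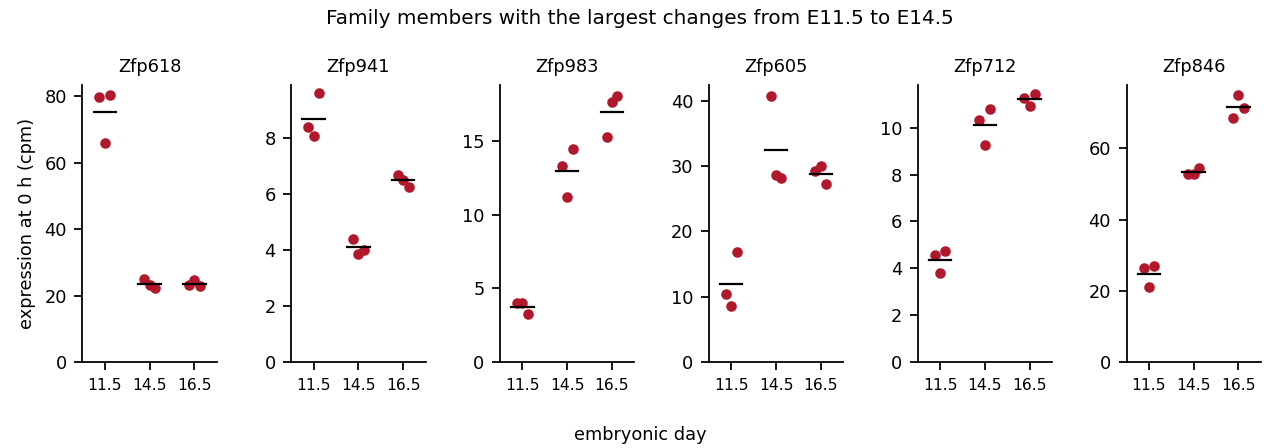
Expression at 0 h in cpm (y axis from 0, its own scale for each gene) in the 3 replicates (points) and their mean (line) by embryonic day, for the members with the largest falls (Zfp618 and Zfp941) and rises (Zfp983, Zfp605, Zfp712 and Zfp846) from E11.5 to E14.5. Genes were eligible only if their E11.5 and E14.5 points did not overlap.

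From E14.5 to E16.5 no member passed both thresholds. Here 0 members were higher (7.19% of all genes) and 0 lower (5.92%) by edgeR, as by DESeq2 and on recovered reads. At an unadjusted p under 0.05 there were 41 and 15, and the share over all genes was not counted at that threshold. By the adjusted p alone there were 39 and 10, beside 24.1% and 25.4% of all genes. The median log2 fold change was 0.15. In this step the KRAB members had the lower median, 0.07 with 19 of 79 higher, and the other members 0.21 with 19 of 40 higher. Over the whole span from E11.5 to E16.5, which shares libraries with both steps, 19 members were higher (14.7% of all genes) and 3 lower (14.6%), and the median was 0.42. The adjusted p alone gave 78 and 12, beside 31.4% and 33.1%. Medians over this span were 0.46 in KRAB members, 0.35 in the other members and 0.47 in other Zfp genes. Those called lower were Zfp618, Zfp664 and Zfp820. Zfp664, the member with the highest mean cpm over the 9 libraries of 0 h, stood at 303, 314 and 290 cpm, then 189, 228 and 198, then 137, 131 and 132, without overlap between stages. At E16.5 it was below Zfp704, at 268, 305 and 320 cpm.

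Partners are given beside the family. Of 19 partners tested from E11.5 to E14.5, 4 were higher and 10 lower by the adjusted p, with a median log2 fold change of -0.18. Over all genes these shares were 25.1% and 23.5%. From E14.5 to E16.5, 4 were higher and 9 lower (24.1% and 25.4% of all genes). Trim28 fell by 0.48 ± 0.0723 (SE, adjusted p = 0.00012, edgeR) and then rose by 0.23 ± 0.0722 (adjusted p = 0.016). Uhrf1, which maintains DNA methylation in dividing cells, fell by 1.08 ± 0.0722 (adjusted p = 7.9e-08). The chromatin remodeller Chd3 rose by 0.88 ± 0.0644 (adjusted p = 1.8e-07).

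The last comparison asked whether levels stayed constant during the chase, since the decay fit uses rates and not levels. No member changed beyond 2-fold. At 12 h against 0 h, edgeR called 23 members higher and 5 lower in E11.5 cells (16.7% and 8.49% of 17224 genes), 16 and 7 in E14.5 cells (10.5% and 9.26%), and 7 and 11 in E16.5 cells (11.7% and 7.47%) by the adjusted p. These counts depended on scaling. With upper-quartile normalization 13 members were higher and 9 lower at E11.5, the median of members moved from 0.07 to -0.01, and over all genes 2885 higher and 1462 lower became 1958 and 2362. With the pool of embryos as a block, the counts were 32 and 5 (22.1% and 12.5% of all genes), 23 and 16 (16% and 14.3%), and 12 and 22 (18% and 11.6%). Without replicate A, B or C of E16.5, 0 to 1 were higher and 3 to 5 lower there. Over all genes, 2011 higher and 1287 lower at E16.5 then became 874 to 994 and 570 to 593. Without replicate B of E11.5, 4 were higher and 17 lower at E16.5 (1613 and 1555 of all genes). In the same run 14 were higher at E11.5 (2067 of all genes). Without replicate A or B of E14.5, 10 and 7 were higher at that stage (1251 and 1200 of all genes). Fewer were also lower at E11.5 without its replicate A or C (2 each, 860 and 1001 of all genes). At E14.5 without its replicate C, 4 were lower (902 of all genes). Median log2 fold changes of the members were 0.07, 0.00 and -0.04 at the 3 stages.

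Among these, Zfp941 fell at all 3 stages, from the 0 h levels above to 6.05, 6.09 and 5.59 cpm, then 1.92, 2.79 and 2.40, then 3.85, 3.02 and 2.76. The changes were -0.42 ± 0.137, -0.76 ± 0.138 and -0.93 ± 0.138 on the log2 scale (SE), with adjusted p of 0.028, 0.00083 and 0.00018 (edgeR). Zfp667 showed the largest rise at E11.5, from 9.66, 9.28 and 10.4 to 15.4, 15.3 and 13.7 cpm, a change of 0.83 ± 0.0978 (adjusted p = 8.0e-06, edgeR). Zfp758 rose at all 3 stages, by 0.75, 0.56 and 0.62 on the log2 scale, and Zfp954 by 0.75, 0.50 and 0.33. Zfp820 rose by 0.61 and 0.74 at the later stages, and Zfp931 by 0.44 in the oldest cells. Falls were seen for Zfp619 (-0.59) and Zfp809 (-0.44) at E11.5, for Zfp867 (-0.62) and Zfp950 (-0.58) at E14.5, and for Zfp612 (-0.52) and Zfp950 (-0.49) at E16.5. The change differed between stages in 4 members by the interaction test without the pool in the model, beside 7.55% of all genes, and in 16 members with the pool as a block, beside 18.2%.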

How the data were processed

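T-to-C conversions were measured by SLAM-seq in 45 libraries of 15 groups (3 stages, 5 chase times). The authors aligned reads with SlamDunk 0.4.3 to mm10 and summed them over exons of GENCODE release 24. The treatment of strand and of reads with several alignments is not given in the sources used here. Covered Ts were deposited as raw counts, so that a longer read or one richer in T weighs more, conversion rates as a fraction, and expression in cpm. The authors also deposited half-lives in hours and R2, a score of the fit. Refitted half-lives of members were within 1% of these in 1018 of 1018 fits. The deposited cpm values were 100% whole multiples of 1 read (within 0.01 reads), and these recovered reads served as an alternative. Covered Ts of a member ran from 551 to 226087 a library. Zfp975 (lowest value 551) was just inside the minimum of 500 and Zfp641 (400) just outside.

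Medians over members and over other genes were taken per replicate. Limma 3.58.1 tested half-lives z-scored within a replicate. EdgeR 4.0.16 (TMM, every library above 10 counts) tested covered Ts, and DESeq2 1.42.0 was an alternative. Benjamini-Hochberg adjustment ran over all genes, and the fits were tested on simulated data. Replicates were separate pools, and libraries at 0 and 12 h of 1 pool deviated together (r from 0.157 to 0.479), so that the pool pairs them. The KRAB-A pattern, sequence features and printed sequences came from GENCODE release 21 on GRCm38, and the printed sequences match the genome.

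The members, lists and markers were chosen with earlier results of these data known. Named members were the 5 shortest and 5 longest half-lives, those called across stages, the 5 highest levels and those with known roles. The 4 largest called changes in each direction between successive stages, without overlap of replicates, and the 3 largest over the chase were also named. Zfp869, Zfp939 and the genes at the coverage minimum were chosen after their values were seen. Alternatives changed the filters, the fit, the normalization, the comparison genes and the replicates used.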

Additional observations from a re-analysis of the deposited data

Results flagged for a closer look

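The change from 0 to 12 h of chase differed between stages in 4 of 120 members by the interaction test of edgeR without the pool of embryos in the model, beside 7.55% of 17224 genes. With the pool as a replicate block, an alternative chosen after seeing the data, 16 members were called beside 18.2% of all genes, these 4 among them. These were Zfp652 (adjusted p = 0.010), Zfp667 (adjusted p = 0.029), Zfp612 (adjusted p = 0.035) and Zfp704 (adjusted p = 0.039). Zfp652 rose by 0.35 ± 0.0586 on the log2 scale (SE) at E11.5 and had changes of 0.04 and -0.04 at the later stages. Zfp667 had 0.83, 0.53 and 0.24, Zfp704 had 0.49, 0.34 and 0.07, and Zfp612 had 0.17, -0.26 and -0.52.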

How the results depend on the processing

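The shorter half-life of the family kept its direction under every alternative run. Its size changed with the fit and with the genes that passed, which some alternatives changed together. The main run held 91 members and 9414 other genes, the early chase 94 and 5203, and an R2 minimum of 0.8 left 59 and 6303. The stage medians of the members (3.11, 3.13 and 2.14 h in order of age) became 2.21, 2.26 and 1.81 h after subtraction of the background rate estimated from the 12 h libraries. In the early chase alone they were 2.60, 2.65 and 1.96 h. An R2 minimum of 0.8 gave 2.20 h for E16.5, and no filter gave 3.35 h for E14.5. The difference from other genes (-1.22, -1.41 and -1.25 h) was -1.07, -1.21 and -1.10 h after background subtraction, -0.71, -0.85 and -0.66 h in the early chase, -0.95, -1.08 and -1.14 h with a free starting value and -1.01, -1.09 and -1.00 h with the R2 minimum of 0.8. Against protein-coding genes alone it was -1.17, -1.35 and -1.18 h, against genes in the central 80% of member expression -1.04, -1.19 and -1.04 h, and for KRAB members alone -1.35, -1.48 and -1.35 h. Without a filter it was -1.16 h for E11.5 and -1.34 h for E16.5, and without members that share sequence -1.19 h for E11.5. Leaving out 1 replicate gave differences of -1.23 to -1.21, -1.44 to -1.39 and -1.27 to -1.22 h. Summing covered Ts over members in place of the median gave conversion rates of 0.438%, 0.442% and 0.602% at 4 h, for medians of 0.377%, 0.382% and 0.480%, and a minimum of 2000 covered Ts gave 0.371% for E14.5.

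The single member called by the F-test (299 of 9505 genes) became 12 in hours without scaling (2296 genes) and 3 on centred log2 values (418 genes). With an R2 minimum of 0.8, 0 of 59 members were called, beside 547 of 6362 genes. Leaving out 1 replicate gave 0 to 1. Without replicate A, B or C of E11.5, 170, 145 and 267 of all genes were called. Counts over all genes are not given for the runs without a replicate of E14.5 or E16.5. Replicate letters name different embryos in each stage and do not pair them (r from -0.098 to 0.111 at 0 h). With the letter as a replicate block the F-test called 0 of all 9505 genes, members included. The block moved no count of expression calls at 0 h by over 1.5 times.

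For expression at 0 h, the adjusted p alone gave 74 higher and 14 lower, 39 and 10, and 78 and 12 in the 3 comparisons. Of all genes it called 25.1% and 23.5%, 24.1% and 25.4%, and 31.4% and 33.1%. For the chase, where the block is the shared pool, the replicate block gave 16 lower at E14.5 and 12 higher and 22 lower at E16.5. The shares over all genes were 14.3%, 18% and 11.6%. In the test of stage differences in the chase, the block, added after seeing the data, gave 16 members in place of 4. The share over all genes became 18.2% in place of 7.55%. A log2 threshold of 1 left 0 members in each direction and stage, beside 107 to 356 of 17224 genes. Upper-quartile normalization gave 13 higher and 9 lower at E11.5 and 4 higher at E16.5, beside 1958, 2362 and 1334 of 17224 genes. No filter on low counts gave 2 lower at E11.5 and 3 higher at E16.5, beside 980 and 1373 of 32202 genes. Recovered reads gave 4 higher at E16.5, beside 1420 of 14025 genes. In the main run 2885 genes were higher and 1462 lower at E11.5, and 2011 were higher at E16.5. Leaving out 1 replicate gave 14 to 24 higher and 2 to 4 lower at E11.5, 7 to 17 and 4 to 6 at E14.5, and 0 to 9 and 3 to 17 at E16.5. Without a replicate of a stage, the counts over all genes at that stage fell as well. The causes were not tested. With 3 replicates a stage and few covered Ts for some members, small differences between single members were not resolved.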
